A study of Mus musculus with 9 samples.

Results

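The genes described are 10 p53 targets and apoptosis regulators, measured by RNA sequencing in mouse C2C12 myotubes. They were chosen by name: Trp53inp1, Phlda3, Bcl2l1, Casp8 and Eda2r, with Cdkn1a, Mdm2, Bax, Bbc3 and Ccng1 added. Earlier results of these data were known when they were chosen. All 10 are among the 10716 genes of the deposited table, and all 10 exceeded its lowest value of 1.00042 in every library. C2C12 is a mouse myoblast line that fuses into multinucleated myotubes when serum is withdrawn. Cells of the first group received vehicle alone. Those of the second received dexamethasone, a synthetic glucocorticoid, at 50 µM. Those of the third received dexamethasone at 50 µM together with the compound that the labels call THSG at 10 µM. Each treatment lasted 24 h and each group has 3 libraries. All cells come from 1 line, and dexamethasone was given in both treated groups, so no group shows THSG without dexamethasone. The labels do not say that libraries of a group came from separate cultures, so p-values measure only the spread between these libraries, which may be technical.

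The transcription factor p53 is kept low by the ubiquitin ligase MDM2 and, when stabilised by stress, switches on genes for growth arrest, DNA repair and cell death. Several of these genes act on mitochondria. BAX opens the outer membrane and the BH3-only protein PUMA (Bbc3) promotes that opening, while BCL-XL (Bcl2l1) and its relatives hold the membrane closed. Death receptors act through a separate route that starts with caspase 8. In muscle, glucocorticoids cause wasting, and cell death genes are followed beside it because nuclei and fibres can be lost.

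The values were taken as FPKM, fragment counts divided by transcript length and by library size, a unit inferred from the table rather than stated. Summed values ran from 400218 to 422379 per library. Their read depths cannot be told from the table. Dexamethasone replicate 3 stood apart: mitochondrial transcripts made up 14.0% of its summed values against 10.54% to 11.95% in the other 8 libraries, and it had the lowest score on the second principal component (-14.6, others -4.5 to 7.3). The treatment labels were checked with Fkbp5, a direct glucocorticoid target, which rose from 6.57 to 97.8 FPKM, and with the atrophy ligase Fbxo32, which rose from 17.4 to 74.3 FPKM. All 9 myotube markers fixed for the check were listed, with summed levels of 9740 to 11000 FPKM in vehicle, 10500 to 11200 with dexamethasone and 11000 to 11400 with THSG added. With dexamethasone, 5 of the 9 rose (among them Myh8 2.09-fold, Myh1 1.70-fold and Ckm 1.67-fold), while Mylpf and Acta1, which make up most of the sum, were not called.

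Markers of other cells moved in both directions with dexamethasone. All 5 of reserve cells and myoblasts were listed, with sums of 127 to 129, 112 to 118 and 113 to 116 FPKM in the 3 groups, and these sums hide opposite changes. Vcam1 fell from 31.7 to 9.90 FPKM, Cd34 from 25.8 to 11.4 and Pax7 from 6.17 to 3.94, while Myf5 rose from 7.74 to 16.2 FPKM and Sdc4 from 56.2 to 74.6. Of 5 fibroblast markers 2 were listed, with sums of 85.9 to 93.8, 36.7 to 40.4 and 40.1 to 40.3 FPKM. Most of that sum is Col1a1, which fell from 86.4 to 30.3 FPKM, whereas Pdgfra rose from 3.32 to 8.40 FPKM. All 7 of these markers were called by the limma test. Of the 4 adipocyte, 4 endothelial and 5 immune markers fixed, 0 are among the genes analysed here. The part of these marker levels in the results that follow was not tested.

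Each gene was tested with limma on log2(FPKM + 0.1), and it was called where the p-value, adjusted by Benjamini-Hochberg over all 10716 genes, was under 0.05. Fold changes and their SE are on that scale, and ± gives the SD of 3 libraries. Between dexamethasone and vehicle, 33.6% of all genes were called, 12.7% higher and 20.9% lower. Higher genes made up 37.8% of those calls, and 49.6% after median-ratio scaling of the libraries. Libraries that do not overlap were common: those with dexamethasone lay wholly above vehicle for 18.0% of all genes and wholly below for 27.9%. With both agents these shares were 17.9% and 25.2%. The 10 genes and the lists below were chosen with earlier results of these data known. Their counts beside those of all genes are thus a description only. Of the 10 genes, 8 were called, 6 higher and 2 lower. Trp53inp1, Bcl2l1, Ccng1, Bbc3, Mdm2 and Eda2r rose, Casp8 and Phlda3 fell, and Cdkn1a and Bax were not called. The median log2 fold change of the 10 was 0.19, against -0.05 for all genes. When THSG was added to dexamethasone, 0% of all genes and 0 of the 10 were called, although 7.25% of all genes and 2 of the 10 (Phlda3 and Bax) had an unadjusted p under 0.05. The smallest adjusted p over all genes was 0.227 in that limma test. With THSG and dexamethasone together against vehicle, 29.1% of all genes were called, 12.1% higher and 17% lower. Of the 10 genes, 7 were called, 6 higher and 1 lower. In bulk RNA, fewer cells of a type and less RNA per cell cannot be told apart.

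**Figure D1:**
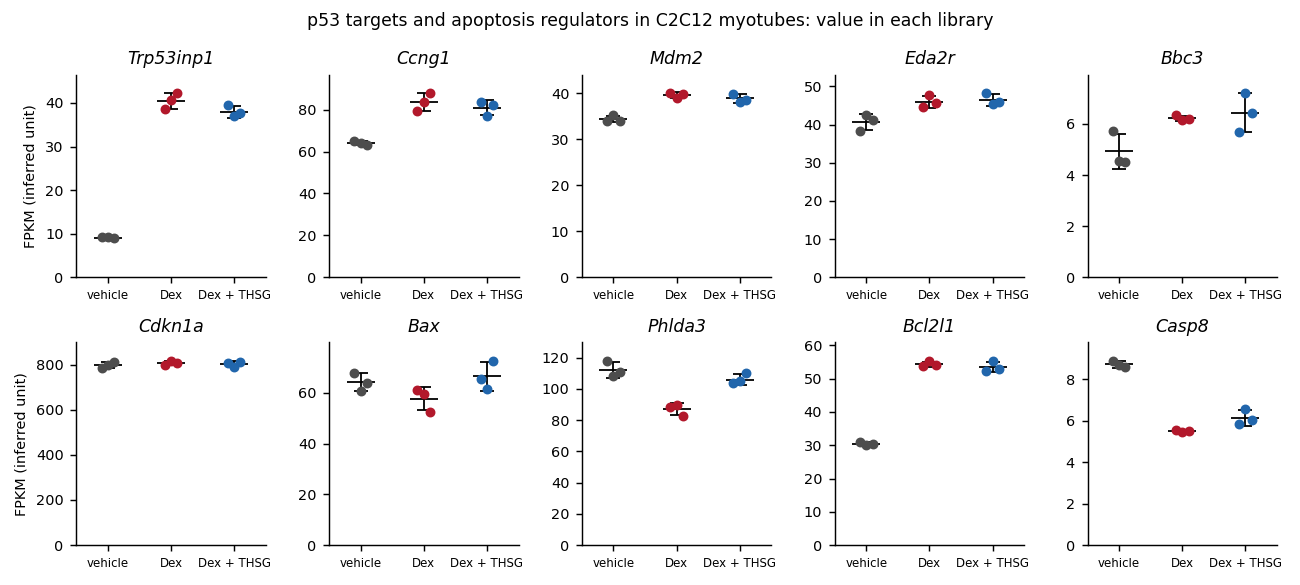
Values of the 10 genes in each library, in FPKM on linear axes that start at 0. Each point is 1 library, the long bar is the mean of the 3 libraries of a group and the whiskers are 1 SD. Trp53inp1 lies near 9 FPKM in vehicle and between 36.9 and 42.3 FPKM in all 6 treated libraries, while Cdkn1a stays between 787 and 817 FPKM throughout.

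The levels of the 10 genes, compared per length, spanned a wide range in vehicle. Cdkn1a was highest at 799 ± 11.9 FPKM (SD, n = 3), and Phlda3 followed at 112 ± 5.32 FPKM. Bax at 64.2 ± 3.51 FPKM and Ccng1 at 64.2 ± 0.976 FPKM had overlapping libraries, so their order cannot be set. Eda2r, Mdm2 and Bcl2l1 followed at 40.7, 34.5 and 30.5 FPKM, with no overlap between neighbours. Trp53inp1 at 9.07, Casp8 at 8.71 and Bbc3 at 4.92 FPKM were lowest, again without overlap. With dexamethasone several genes took other places in this order. Trp53inp1, at 40.5 ± 1.81 FPKM, came beside Mdm2 at 39.6 ± 0.636 FPKM, and the libraries of these 2 genes overlapped. Bcl2l1, at 54.3 FPKM, lay above Eda2r at 46.0 FPKM and above Mdm2, Bbc3 at 6.22 FPKM lay above Casp8 at 5.50 FPKM, and Ccng1 at 83.6 FPKM lay above Bax at 57.8 FPKM, all without overlap. The transcript lengths used by the authors are not given in the sources used here, so this order holds only for the values as deposited.

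Trp53inp1 had the largest change of the 10. It encodes a stress-induced p53 target that takes part in the p53 response and in autophagy. Its level was 9.16, 9.14 and 8.92 FPKM in the vehicle libraries, 38.7, 40.7 and 42.3 FPKM with dexamethasone, and 39.5, 36.9 and 37.6 FPKM with THSG added. Every treated library lay far above every vehicle library, and the treated groups overlapped each other. The rise with dexamethasone was 4.43-fold (log2 2.15, SE 0.053, limma adjusted p = 7.93e-11) and ranked 24 among the rises of all 10716 genes. With THSG added the log2 difference from dexamethasone was -0.09, with a 95% interval of -0.21 to 0.02 (adjusted p = 0.726).

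Among the remaining targets that act as regulators of p53 or of the cell cycle, 2 rose and 1 did not pass the test. Ccng1, which encodes cyclin G, a partner of protein phosphatases in the MDM2 loop, was at 65.3, 64.1 and 63.3 FPKM in vehicle, 79.2, 83.7 and 88.0 FPKM with dexamethasone, and 83.6, 77.1 and 82.4 FPKM with THSG added. The vehicle libraries were all lower than the treated ones. The log2 fold change was 0.38 with dexamethasone (SE 0.049, limma adjusted p = 0.000108) and 0.33 with both agents (adjusted p = 0.000308). Mdm2, the ligase that degrades p53 and is itself a target, was at 34.1, 35.2 and 34.1 FPKM in vehicle, 40.1, 38.9 and 39.9 FPKM with dexamethasone, and 39.9, 38.1 and 38.5 FPKM with THSG added. Its treated libraries were again all higher than those of vehicle, by a log2 fold change of 0.20 with dexamethasone (SE 0.043, limma adjusted p = 0.00382) and 0.17 with both agents (adjusted p = 0.0106). Cdkn1a encodes the cell cycle inhibitor p21, which is also high in differentiated myotubes. It was at 787, 798 and 811 FPKM in vehicle, 798, 817 and 805 FPKM with dexamethasone, and 809, 791 and 812 FPKM with THSG added. The 3 groups overlapped, and the 95% interval of the dexamethasone log2 fold change ran from -0.08 to 0.11 (limma adjusted p = 0.824).

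Trp53 itself was at 41.3 ± 1.15 FPKM in vehicle, 35.2 ± 3.04 FPKM with dexamethasone and 35.8 ± 2.36 FPKM with THSG added. It fell by 0.23 on the log2 scale with dexamethasone (limma adjusted p = 0.0199), which is a transcript level and not a measure of p53 protein or activity. That call was lost after median-ratio scaling (-0.18, adjusted p = 0.0596) and quantile normalization (-0.19, adjusted p = 0.0558). A replicate block together with a correction for GC content and length also took it (-0.2, adjusted p = 0.0595). So did leaving out vehicle replicate 1, dexamethasone replicate 1 or dexamethasone replicate 2 (adjusted p = 0.0645, 0.0588 and 0.0812). Within each library the ratio of the Mdm2 level to the Trp53 level was 0.805 to 0.853 in vehicle, 1.04 to 1.20 with dexamethasone and 0.988 to 1.16 with THSG added. The ratio was thus higher in all 6 treated libraries than in any vehicle library.

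Promoter windows are shown to set the letters read by p53 beside these levels. RefSeq windows of the mouse build GRCm38.p6, each 300 bases long from 250 before to 50 after a transcript start, were present for 9 of the 10 genes, with 14 windows among them. The p53 decamer, the 10-base motif bound by a p53 dimer, was searched by its usual consensus on both strands, with no mismatch allowed. It occurred in 4 of the 9 genes, against 9.55% of all 27025 genes, and in 4 of the 14 windows, against 8.36% of all 32851 windows. These stretches are printed 5′ to 3′ on the strand of the gene, with the decamers in capitals and 20 bases on each side.
Cdkn1a, chr17:29090886-29090957, plus strand: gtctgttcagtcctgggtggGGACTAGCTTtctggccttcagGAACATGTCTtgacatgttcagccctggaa
Mdm2, chr10:117710915-117710964, minus strand: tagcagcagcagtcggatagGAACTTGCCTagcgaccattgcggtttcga
Ccng1, chr11:40755442-40755491, minus strand: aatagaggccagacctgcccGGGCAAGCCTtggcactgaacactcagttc
Bax, chr7:45467070-45467119, minus strand: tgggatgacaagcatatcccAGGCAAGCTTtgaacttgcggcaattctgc
By exact matches alone, Cdkn1a was the single gene of the 9 with 2 decamers close enough to form a full element. These lay 12 bases apart and 73 to 42 bases before the transcript start of that window. The 9 genes have 14 windows, and which start is most used in these cells was not examined. Near matches to the decamer were not counted. Such near matches directly follow the last decamer of Cdkn1a and directly precede that of Ccng1, so other full elements with a mismatch were missed by this search. Full elements with at most 13 bases between decamers occurred in 0.074% of all genes and 0.0731% of all windows. The matched decamer of Mdm2 lay 186 to 177 bases before the start of its window, that of Ccng1 185 to 176 and that of Bax 201 to 192.

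The levels of these 4 genes did not follow the motif in 1 direction. Ccng1 and Mdm2 rose with dexamethasone, while Cdkn1a, with the exact full element, and Bax were not called. Eda2r, Phlda3, Bbc3, Bcl2l1 and Casp8 had no exact decamer in their windows, and of these Eda2r, Bbc3 and Bcl2l1 rose. The looser core, CNNG followed by 6 bases of any kind and CNNG again, was in 8 of the 9 genes and in 72.4% of all genes (70.2% of windows), so it separates little. The glucocorticoid receptor core, GNACA followed by 3 bases of any kind and TGTNC, was in 0 of the 9 genes and in 0.537% of all genes (0.475% of windows). The shorter receptor motif AGAACA, searched on both strands, was in 0 of the 9 genes and in 21.3% of all genes (19.0% of windows). A match describes letters in this window only, and p53 and the receptor are known to bind many sites outside such windows.

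**Figure D2:**
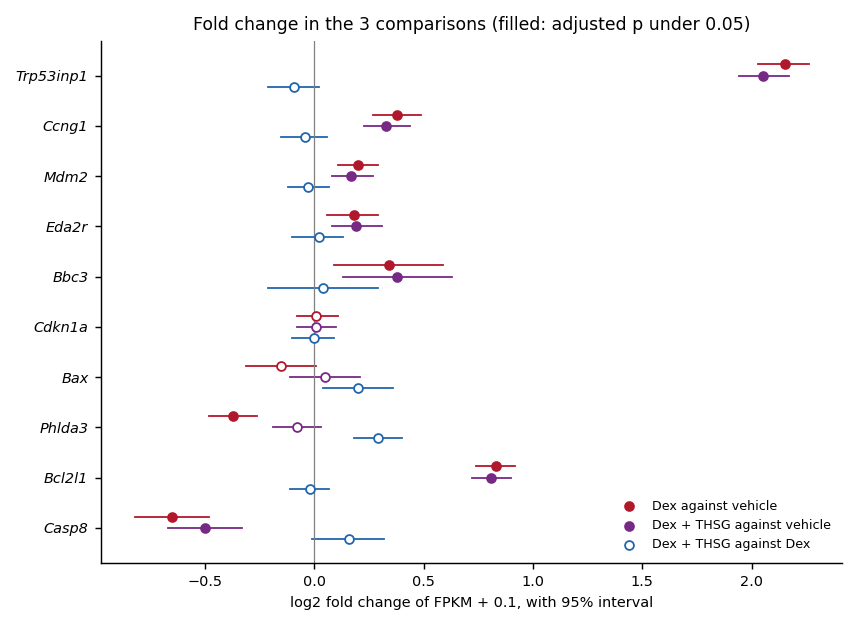
Log2 fold change of FPKM + 0.1 for the 10 genes in the 3 comparisons, with 95% intervals from limma. Filled points have an adjusted p under 0.05: 8 for dexamethasone against vehicle, 7 for dexamethasone plus THSG against vehicle and 0 for THSG added to dexamethasone, where the interval of Phlda3 runs from 0.18 to 0.40.

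Phlda3 fell with dexamethasone, and its level with THSG added lay above that with dexamethasone alone without passing the test. PHLDA3 is a small p53-induced protein that competes with AKT for membrane lipids and so restrains AKT. Its level was 118, 108 and 111 FPKM in vehicle, 88.2, 89.9 and 82.9 FPKM with dexamethasone, and 104, 105 and 110 FPKM with THSG added. All dexamethasone libraries lay below all others, while vehicle and THSG libraries overlapped. The fall with dexamethasone was -0.37 on the log2 scale (SE 0.049, limma adjusted p = 0.000136). The difference of THSG plus dexamethasone from dexamethasone was 0.29 (95% interval 0.18 to 0.40, unadjusted p = 9.33e-05, limma adjusted p = 0.227), rank 4 of 10716 genes by p. Against vehicle it was -0.08 (adjusted p = 0.273). The transcript is rich in GC (62.6%, against a median of 49.7% for all genes). After a correction that takes out the dependence on GC content and length within each library, the first difference was -0.20 (adjusted p = 0.00177) and the second 0.16 (adjusted p = 0.44). These comparisons share the dexamethasone libraries.

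AKT pathway genes that stand next to PHLDA3 were counted as a list. Of 8 listed, 2 rose with dexamethasone, 0 fell and 6 were not called, where 12.7% of all genes rose and 20.9% fell. The median log2 fold change was 0.06, against -0.05 for all genes. Akt2, the AKT isoform tied to insulin-driven glucose uptake in muscle, rose from 82.4 ± 1.58 to 102 ± 4.73 FPKM (log2 0.31, limma adjusted p = 0.00018). Pdpk1, the kinase that activates AKT, was at 18.0 ± 0.893 and 20.2 ± 1.52 FPKM (adjusted p = 0.0747) and was not called.

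Bcl2l1 rose in both treated groups. It encodes BCL-XL, which holds the mitochondrial outer membrane closed. It was at 31.1, 30.2 and 30.3 FPKM in vehicle, 53.9, 55.2 and 54.0 FPKM with dexamethasone, and 52.4, 55.4 and 53 FPKM with THSG added. No treated library came near the vehicle level, and the treated groups overlapped. The rise was 1.78-fold with dexamethasone (log2 0.83, SE 0.042, limma adjusted p = 4.05e-08), rank 190 among the rises of all genes. The log2 difference of THSG plus dexamethasone from dexamethasone was -0.02, with a 95% interval of -0.11 to 0.07 (adjusted p = 0.928).

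The survival members of the BCL2 family did not move alike. Of 4 listed, 2 rose (Bcl2l1 and Mcl1), 1 fell (Bcl2) and 1 was not called (Bcl2l2) with dexamethasone, where 12.7% of all genes rose and 20.9% fell. Mcl1, a short-lived survival protein, was at 48.2, 44.8 and 44.7 FPKM in vehicle, 54.9, 57.3 and 54.8 FPKM with dexamethasone, and 58.6, 54.5 and 53.9 FPKM with THSG added. Its vehicle libraries were the lowest (log2 0.28, limma adjusted p = 0.0011). Bcl2, the founding member, was low, at 2.65, 2.44 and 2.10 FPKM in vehicle and 1.75, 1.91 and 1.74 FPKM with dexamethasone (log2 -0.39, limma adjusted p = 0.0385). The groups did not overlap, but the call was lost under 11 of the 19 alternative settings that kept the gene, such as median-ratio scaling (adjusted p = 0.0635). Without vehicle replicate 1 or 2 the adjusted p was 0.137 or 0.0966, without dexamethasone replicate 1, 2 or 3 it was 0.0917, 0.0535 or 0.0932, and without THSG replicate 2 it was 0.0529. Bcl2l2 was at 19.1, 18.6 and 18.9 FPKM in the 3 groups, with a dexamethasone interval of -0.18 to 0.10.

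Bax and Bbc3, the p53 targets that promote membrane opening, differed. Bax encodes a pore former. It was at 67.8, 60.8 and 63.9 FPKM in vehicle, 61.3, 59.5 and 52.6 FPKM with dexamethasone, and 65.4, 61.5 and 72.7 FPKM with THSG added. Vehicle and dexamethasone libraries overlapped, whereas all THSG libraries lay narrowly above all dexamethasone ones. The log2 difference was -0.15 for dexamethasone (limma adjusted p = 0.134) and 0.20 for THSG added to it (unadjusted p = 0.0177, adjusted p = 0.607). The lowest value belongs to dexamethasone replicate 3, and without that library the dexamethasone difference was -0.09. Bax is GC-rich (63.5%), and after the GC content and length correction the 2 differences were 0.04 and 0.06, with overlap in the second.

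Bbc3 encodes PUMA, a BH3-only protein that neutralises BCL-XL and its relatives. It was at 5.72, 4.56 and 4.49 FPKM in vehicle, 6.33, 6.14 and 6.20 FPKM with dexamethasone, and 5.70, 7.21 and 6.41 FPKM with THSG added. All dexamethasone libraries lay above vehicle, and THSG replicate 1 lay within the vehicle range. The log2 rise with dexamethasone was 0.34 (SE 0.115, limma adjusted p = 0.0389), and 0.55 after the GC content and length correction (adjusted p = 0.000795). The call was lost without vehicle replicate 2 or 3, any 1 of the 3 dexamethasone libraries or THSG replicate 3, with adjusted p from 0.0509 to 0.124. With both agents the log2 rise over vehicle was 0.38 (limma adjusted p = 0.026), a call lost without vehicle replicate 2 or 3 or THSG replicate 2 or 3 (adjusted p = 0.092, 0.0907, 0.108 and 0.063).

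Counted over the pore formers and BH3-only genes, 4 of 11 rose with dexamethasone (Bnip3, Pmaip1, Bbc3 and Bmf), 2 fell (Bok and Bad) and 5 were not called. Over all genes 12.7% rose and 20.9% fell. Bnip3, which marks mitochondria for autophagy, rose from 27.8 ± 2.04 to 36.7 ± 2.73 FPKM (log2 0.40, limma adjusted p = 0.000794). Pmaip1, the p53 target NOXA that neutralises MCL1, was at 32.0, 37.3 and 34.2 FPKM in the 3 groups (log2 0.22, limma adjusted p = 0.0126). Its call was lost without dexamethasone replicate 2 (adjusted p = 0.053). Bok, a BAX relative, was at 17.1, 13.7 and 15.7 FPKM (log2 -0.32, limma adjusted p = 0.00476), and its THSG libraries all lay above the dexamethasone ones. Bad, a BH3-only protein held inactive by AKT, was at 20.5, 15.3 and 19.3 FPKM (log2 -0.41, limma adjusted p = 0.0297). That call was lost without vehicle replicate 1 (adjusted p = 0.119), vehicle replicate 3 (adjusted p = 0.0538) or dexamethasone replicate 3 (adjusted p = 0.115). The call of Bad was also lost in a limma fit without an intensity trend (adjusted p = 0.0564). So it was with a replicate block and the GC content and length correction together (adjusted p = 0.0657). Bmf, a BH3-only protein linked to the cytoskeleton, differed by 0.41 (adjusted p = 0.0488) and lost its call under 9 of 20 settings. The higher count of this list was 2 without vehicle replicate 2, any 1 dexamethasone library or THSG replicate 3. The lower count was 1 without vehicle replicate 1, vehicle replicate 3, dexamethasone replicate 3 or the intensity trend.

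The ratio of the Bcl2l1 level to the Bax level within a library put these changes side by side. It was 0.458, 0.496 and 0.474 in vehicle, 0.878, 0.928 and 1.03 with dexamethasone, and 0.80, 0.90 and 0.729 with THSG added. All treated libraries were above all vehicle libraries. The highest ratio was that of dexamethasone replicate 3, where Bax was lowest. The ratio of Bcl2l1 to Bcl2 was 11.7 to 14.5 in vehicle, 29.0 to 31.0 with dexamethasone and 26.6 to 28.8 with THSG added. These are ratios of transcript levels per length and say nothing of the proteins.

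Casp8 fell in both treated groups. It encodes the initiator caspase that death receptors activate, and it also restrains necroptosis. It was at 8.89, 8.68 and 8.57 FPKM in vehicle, 5.56, 5.44 and 5.50 FPKM with dexamethasone, and 5.84, 6.58 and 6.02 FPKM with THSG added. The 3 groups did not overlap, with the THSG libraries between the others. The log2 fall with dexamethasone was -0.65 (SE 0.077, limma adjusted p = 4.99e-05) and that with both agents was -0.50 (adjusted p = 0.000444). The log2 difference of THSG plus dexamethasone from dexamethasone was 0.16, with a 95% interval of -0.01 to 0.32 (unadjusted p = 0.0689, adjusted p = 0.699).

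Of 9 caspases listed, 2 rose with dexamethasone, 2 fell and 5 were not called. The share called was 44.4%, against 33.6% of all genes. Their median log2 fold change of -0.05 equals the median of all genes. The inflammatory caspase gene Casp4 was at 13.1 ± 0.274 and 17.0 ± 2.77 FPKM (log2 0.36, limma adjusted p = 0.0126). Casp12, a relative linked to stress of the endoplasmic reticulum, was at 38.4 ± 2.28 and 47.5 ± 2.49 FPKM (log2 0.31, limma adjusted p = 0.00735). Casp9, the initiator of the mitochondrial route, was at 9.50, 10.6 and 12.7 FPKM in vehicle and 7.88, 7.86 and 7.65 FPKM with dexamethasone (log2 -0.47, limma adjusted p = 0.0133). Its call was lost without vehicle replicate 3, the highest library (adjusted p = 0.0539). Casp6, an executioner, was at 8.90, 8.54 and 7.17 FPKM in the 3 groups. Its THSG libraries lay below the dexamethasone ones (log2 -0.25, unadjusted p = 0.02, adjusted p = 0.629), and with both agents it was lower than in vehicle (log2 -0.30, limma adjusted p = 0.028). That call was lost after quantile normalization (adjusted p = 0.0572) and without vehicle replicate 1 or 2 or THSG replicate 2 or 3 (adjusted p = 0.102, 0.0956, 0.0596 and 0.101).

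Of 11 death receptors and adaptors listed, 0 rose, 5 fell and 6 were not called with dexamethasone, where 12.7% of all genes rose and 20.9% fell. The median log2 fold change was -0.23, against -0.05 for all genes. Tnfrsf12a, the receptor of the muscle-wasting cytokine TWEAK, was at 176, 154 and 149 FPKM in vehicle, 102, 120 and 125 FPKM with dexamethasone, and 127, 112 and 113 FPKM with THSG added. All treated libraries lay below vehicle (log2 -0.47 with dexamethasone, limma adjusted p = 0.00116). Ripk3 and Mlkl, the kinase and the membrane effector of necroptosis, fell from 3.08 ± 0.313 to 1.85 ± 0.127 FPKM and from 6.18 ± 0.676 to 3.55 ± 0.161 FPKM (log2 -0.70 and -0.78, limma adjusted p = 0.00422 and 0.00484). With THSG added, Mlkl was at 5.92, 3.80 and 3.37 FPKM, so 1 library stood near the vehicle level.

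Tnfrsf1a, the main receptor of tumour necrosis factor, was at 40.2, 43.8 and 42.4 FPKM in vehicle, 37.0, 36.1 and 34.9 FPKM with dexamethasone, and 40.8, 39.7 and 43.8 FPKM with THSG added. Only the dexamethasone libraries were separate from the others. The log2 difference was -0.23 with dexamethasone (limma adjusted p = 0.00616) and 0.20 for THSG added to it (unadjusted p = 0.00268, adjusted p = 0.442). The dexamethasone call of Tnfrsf1a was lost under 1 of 20 settings, the replicate block with the GC content and length correction (-0.16, adjusted p = 0.0527). Tradd, the adaptor of that receptor, differed by -0.31 (adjusted p = 0.0335), a call lost under 11 of 20 settings. Where genes under a mean of 5 FPKM were left out, 3 of the list fell.

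**Figure D3:**
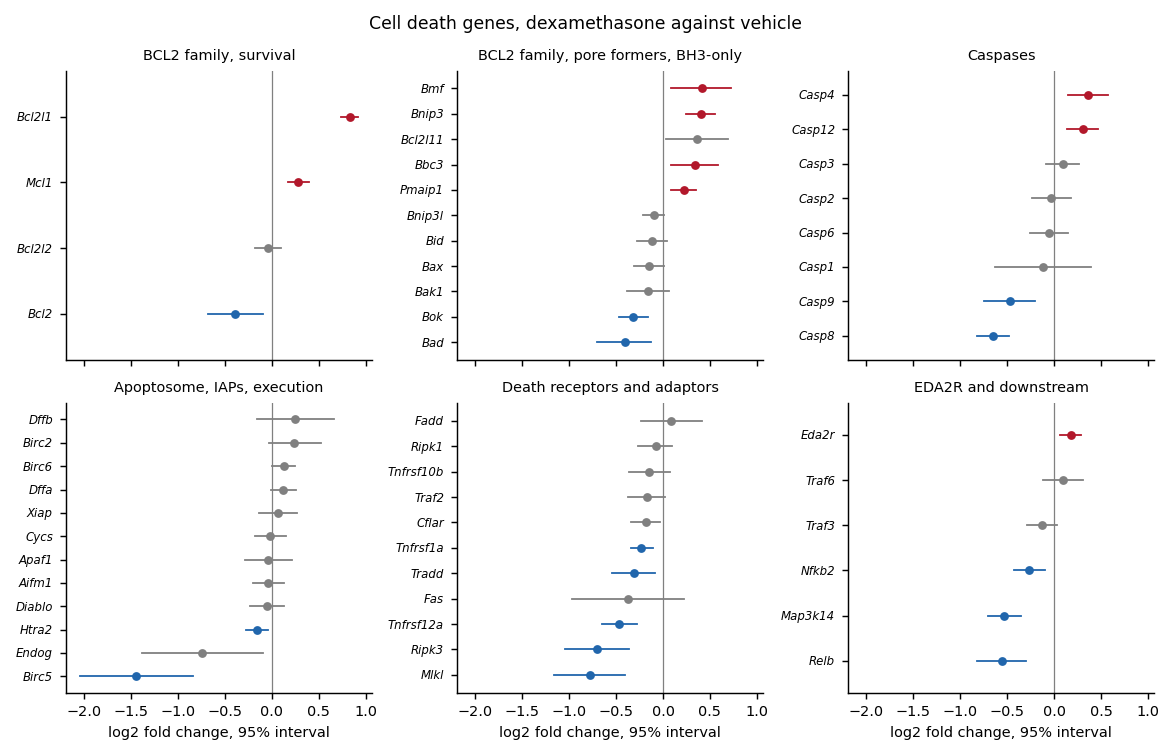
Log2 fold change of FPKM + 0.1 for dexamethasone against vehicle in 6 lists of cell death genes, with 8 of the 9 caspases shown and 95% intervals from limma. Red points rose and blue points fell at an adjusted p under 0.05, and grey points were not called. No gene of the death receptor panel is red, and Bcl2l1 is the highest survival gene at 0.83.

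Eda2r showed a small difference. It encodes a receptor of the ectodysplasin family that is a p53 target, signals through TRAF adaptors to NF-kB and has been tied to muscle wasting. It was at 38.4, 42.5 and 41.3 FPKM in vehicle, 44.7, 47.7 and 45.7 FPKM with dexamethasone, and 48.3, 45.3 and 45.9 FPKM with THSG added. All treated libraries lay above all vehicle libraries. The log2 rise with dexamethasone was 0.18 (SE 0.052, limma adjusted p = 0.0214), or 1.13-fold, and that with both agents was 0.19 (adjusted p = 0.0157). The first call was lost after the GC content and length correction (0.10, adjusted p = 0.108), without vehicle replicate 1 (0.13, adjusted p = 0.0813) and without dexamethasone replicate 2 (0.15, adjusted p = 0.0801). The second was lost without vehicle replicate 1 (0.15, adjusted p = 0.06) or THSG replicate 1 (0.16, adjusted p = 0.0609).

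Of 6 genes listed for this receptor and its downstream route, 1 rose (Eda2r), 3 fell and 2 were not called. With dexamethasone, 12.7% of all genes rose and 20.9% fell. The 3 listed genes that fell belong to the noncanonical NF-kB route. Map3k14, its kinase NIK, was at 10.3, 10.0 and 9.35 FPKM in vehicle, 7.06, 6.94 and 6.51 FPKM with dexamethasone, and 6.69, 7.24 and 7.50 FPKM with THSG added (log2 -0.53 with dexamethasone, limma adjusted p = 0.00031). Relb, a subunit of the transcription factor, fell from 9.35 ± 1.61 to 6.28 ± 0.535 FPKM (log2 -0.56, limma adjusted p = 0.00365). Nfkb2, its partner, fell from 28.5 ± 1.86 to 23.7 ± 1.88 FPKM (log2 -0.27, limma adjusted p = 0.0173), a call lost without vehicle replicate 1 (adjusted p = 0.0707) or dexamethasone replicate 3 (adjusted p = 0.0683). Traf3 and Traf6, the adaptors, were at 10.1 and 5.34 FPKM in vehicle and 9.18 and 5.71 FPKM with dexamethasone, and neither was called. The ligand gene Eda was not analysed here.

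The wider set of p53 targets moved in both directions. Of 50 genes fixed, 46 were listed, and with dexamethasone 9 rose, 11 fell and 26 were not called. That is 43.5% called, against 33.6% of all genes, and the median log2 fold change was -0.04, against -0.05 for all genes. Sesn1, a stress-induced inhibitor of mTORC1, was at 18.1, 19.1 and 20.1 FPKM in vehicle, 47.1, 49.9 and 51.7 FPKM with dexamethasone, and 53, 51.5 and 49.0 FPKM with THSG added. Each treated library was far above vehicle (2.58-fold with dexamethasone, log2 1.37, limma adjusted p = 7.58e-09). Its relative Sesn2, chosen here after its values were seen, was at 4.39 ± 0.245 FPKM in vehicle and 2.98 ± 0.203 FPKM with dexamethasone, a log2 fall of -0.54 (limma adjusted p = 0.00171). The 2 sestrins thus changed in opposite directions.

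Ei24, a p53-induced gene with a role in autophagy, rose from 38.5 ± 0.614 to 53.9 ± 3.89 FPKM (log2 0.48, limma adjusted p = 2.64e-05). Epha2, an ephrin receptor, fell from 19.8 ± 2.26 to 11.8 ± 1.16 FPKM (log2 -0.75, limma adjusted p = 9.16e-05). Pgf, placental growth factor, was at 11.3, 11.0 and 12.1 FPKM in vehicle, 4.53, 4.60 and 5.02 FPKM with dexamethasone, and 6.34, 6.38 and 5.92 FPKM with THSG added. The 3 groups of Pgf did not overlap, with the THSG libraries between the others. Its log2 fold change was -1.27 with dexamethasone (limma adjusted p = 2.99e-07) and 0.39 for THSG added to it (unadjusted p = 0.000473, adjusted p = 0.23).

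**Figure D4:**
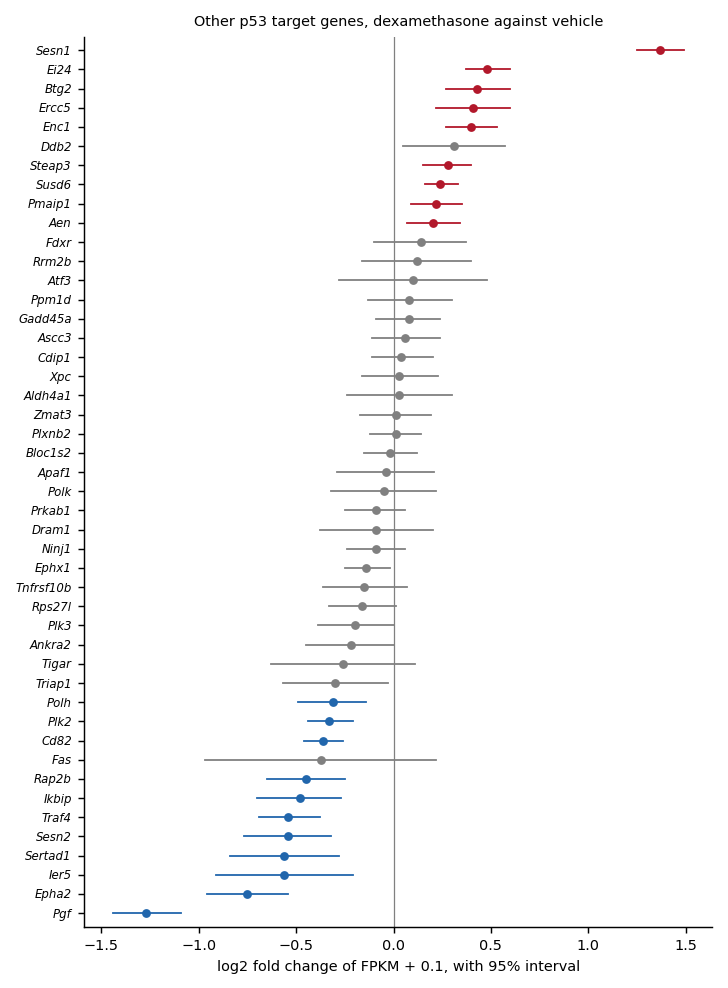
Log2 fold change of FPKM + 0.1 for dexamethasone against vehicle in the 46 further p53 targets, sorted by value, with 95% intervals from limma. Red points (9) rose and blue points (11) fell at an adjusted p under 0.05, and 26 grey points were not called. The values run from -1.27 for Pgf to 1.37 for Sesn1.

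Genes that act on p53 itself were as mixed: of 16 listed, 3 rose, 3 fell and 10 were not called. That is 37.5% called, near the 33.6% of all genes. Hipk2, a kinase that phosphorylates p53, rose from 24.9 ± 1.93 to 36.8 ± 1.02 FPKM (log2 0.56, limma adjusted p = 2.1e-05). Trim28, a corepressor that works with MDM2, fell from 45.6 ± 2.14 to 36.8 ± 1.29 FPKM (log2 -0.31, limma adjusted p = 0.000794). Sirt1, a deacetylase of p53, rose from 6.55 ± 1.16 to 9.29 ± 1.07 FPKM (log2 0.50, limma adjusted p = 0.0117). Kat5, an acetyltransferase of p53, was at 16.6, 17.7 and 16.7 FPKM in the 3 groups and was not called. Trp63, a p53 relative, differed by 0.19 (limma adjusted p = 0.0431) and lost its call under 12 of 20 settings. Under median-ratio scaling, quantile normalization or the removal of vehicle replicate 1, 1 gene of this list fell rather than 3.

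Of 12 apoptosome, inhibitor and execution genes listed, 0 rose, 2 fell and 10 were not called, so 16.7% were called against 33.6% of all genes. Birc5 encodes survivin, an inhibitor of apoptosis protein that also works in mitosis. It was at 8.88, 7.93 and 6.10 FPKM in vehicle, 2.40, 1.95 and 4.22 FPKM with dexamethasone, and 1.60, 2.88 and 2.74 FPKM with THSG added. No treated library reached the vehicle range (log2 -1.45 with dexamethasone, SE 0.277, limma adjusted p = 0.00179).

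Markers of dividing cells moved with Birc5. Of 6 fixed, 3 were listed (Top2a, Ccnb1 and Cdk1), with summed levels of 27.2 to 31.5 FPKM in vehicle, 8.46 to 12.5 FPKM with dexamethasone and 9.54 to 11.2 FPKM with THSG added. Their part in the change of Birc5 was not tested.

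Htra2, a mitochondrial protease that antagonises inhibitor of apoptosis proteins, differed by -0.16 (limma adjusted p = 0.0432), a call lost under 15 of 20 settings. Endog, a mitochondrial nuclease, was at 2.40, 1.43 and 2.01 FPKM in the 3 groups and was not called (adjusted p = 0.0736). The ubiquitin ligases Birc6 and Birc2 were at 16.3 and 11.1 FPKM in vehicle and at 17.8 and 13.2 FPKM with dexamethasone, and were not called either.

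Over all 124 listed genes of these pathways, 55 were called with dexamethasone (44.4%, against 33.6% of all genes), 25 higher and 30 lower. With both agents against vehicle 43 were called (34.7%, against 29.1% of all genes), 22 higher and 21 lower. When THSG was added to dexamethasone 0 were called, and 13 had an unadjusted p under 0.05, 11 of them higher, where 5.05% of all genes were higher by that rule. Libraries with THSG lay wholly above those with dexamethasone alone for 15 of the 124 genes (12.1%, against 8.41% of all genes) and wholly below for 4 (3.23%, against 4.84%). The 15 include Phlda3, Bax and Casp8, and among named genes Pgf, Bok, Bad and Tnfrsf1a. The count was 14 (11.3%, against 6.58%) after median-ratio scaling, 12 (9.68%, against 7.75%) after the GC content and length correction and 20 (16.1%, against 12.9%) without dexamethasone replicate 3, alternatives chosen after seeing the data.

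Genes whose levels followed a called member closely were sought among those with a mean of at least 5 FPKM, by Pearson's r over the 9 libraries. The 9 libraries fall into 3 groups, so differences between groups enter each r, which is given as a description. Trp53inp1 was closely followed by Selenop (r = 0.999), and Bcl2l1 was most like Fkbp5 and Col4a2 (r = 0.998 for both). Mdm2 was most like Tmem64 and Anxa4 (r = 0.983 for both), Eda2r most like Serpinb1a (r = 0.981) and Pdha1 (r = 0.964), and Bbc3 most like Ttc28 (r = 0.978) and Agpat5 (r = 0.951). Among the genes that fell, Casp8 was most like Lrrc59 (r = 0.992) and Mlec (r = 0.991), and Phlda3 most like Fau and Emc8 (r = 0.975 for both). Emc8, a subunit of a membrane protein insertion complex, was at 14.3, 6.82 and 11.7 FPKM in the 3 groups, and Fau at 404, 335 and 379 FPKM. Both were picked for their likeness to Phlda3 over these libraries, so a shared pattern is fixed by the choice.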

How the data were processed

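Per the labels' protocols, a Hybrid-R kit served for RNA extraction and a TruSeq kit for stranded mRNA libraries. STAR 2.7.10a and featureCounts, with the build GRCm39 (mm39), are named in the submitters' processing notes. Strand setting, annotation, transcript lengths and low-value filter are not given in the sources used here. The deposited values are fractional, all above 1, and were taken as FPKM computed by the authors, a unit inferred from the values. Whole reads could not be recovered, so no count test was run. Sample titles were followed where the cell line field differs.

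Tests were made in limma 3.58.1 (R 4.3.3) on log2(FPKM + 0.1): 1 mean per group, all 9 libraries, intensity trend, two-sided tests, Benjamini-Hochberg adjustment over 10716 genes, threshold 0.05. Same-numbered libraries did not deviate together (r -0.09 to 0.11), so replicate numbers were not used as a block. GC content and length came from GENCODE M21 (GRCm38), which held 10670 of the identifiers, and 49 human-style symbols were replaced by the mouse symbol. Promoter windows and their coordinates come from RefSeq (GRCm38.p6), an earlier build than the authors'.

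Members and lists were chosen with earlier results of these data known. Named genes are the 10 members, Trp53, from each list the 4 genes of lowest p for dexamethasone against vehicle (fewer where the list is shorter) and the 1 of lowest p for THSG added, the 2 genes most like each called member, and Fkbp5 and Fbxo32 as checks. Some genes that this rule names are not reported here. Genes outside this rule (Bmf, Tradd, Sesn2, Trp63 and markers) were named after their values were seen. Alternatives covered the pseudocount, 3 scalings, a minimum mean of 5 FPKM, the trend, the 2 compared groups alone, a replicate block, a GC content and length correction, and leaving out each library.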

Additional observations from a re-analysis of the deposited data

How the results depend on the processing

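Over 20 alternative settings, the 10 genes gave 600 values in the 3 comparisons. Of these, 567 kept their direction and their side of the threshold, 17 kept their direction and lost the call, 0 gained one and 16 changed sign. The genes called among the 10 numbered 6 to 8 for dexamethasone against vehicle and 6 to 7 for both agents against vehicle when each library was left out, and 7 to 8 and 7 under the other settings. All changes of sign concern differences that were not called. For dexamethasone against vehicle, Bax was at 0.04 after the GC content and length correction, with and without the block. For THSG added to dexamethasone, Eda2r was at 0 with equal sums and -0.02 with quantile normalization, and it ran from -0.01 to 0.04 when each library was left out. Bbc3 was at -0.13 and Ccng1 at 0.02 after the GC content and length correction, with and without the block. When each library was left out, Bbc3 ran from -0.04 to 0.13 and Cdkn1a from -0.01 to 0.01. For both agents against vehicle, Cdkn1a was at 0 with quantile normalization and ran from 0 to 0.02 with each library left out, and Bax from -0.01 to 0.11. The cause of these changes was not tested.

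Numbers of genes called for THSG added to dexamethasone were 0 to 1 when each library was left out (1 higher, without dexamethasone replicate 3), 1 with the replicate block and 1 with the block and the GC content and length correction, none of them among the 10. The block alone also took the call of Bbc3 for dexamethasone against vehicle (adjusted p = 0.0602), and it took no other call of the 10 in that comparison. Eda2r lost its call there with the correction alone (adjusted p = 0.108) and with the block and the correction together (adjusted p = 0.123). The smallest adjusted p that Phlda3 reached for THSG added was 0.162. Read depth is unknown and each group has 3 libraries. The median 95% interval of a gene reached 0.185 to either side on the log2 scale, with narrower ones for genes of small spread such as Mdm2.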
